A study of Mus musculus with 23 samples.

Results

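The mouse mitochondrial genome carries 37 genes, and all 37 stood among the 52636 genes of the count tables: 13 that encode proteins, 2 that encode ribosomal RNAs (rRNAs) and 22 that encode transfer RNAs (tRNAs). They were chosen by their chromosome name, MT, and by no measured value. RNA had been taken from whole, frozen hippocampus and sequenced as 23 stranded mRNA libraries in a genotype by oxygen design. The design gave 6 P301S hypoxia, 5 P301S normoxia, 6 WT hypoxia and 6 WT normoxia libraries, all from mice of 1 mixed C57Bl6 and Balbc background. P301S names a mutation of tau, the microtubule-binding protein that forms aggregates in tauopathies, and the series title describes the hypoxia as chronic and intermittent. The sources used here give neither the promoter of the transgene nor the hypoxia regimen, nor the age or sex of the mice. The labels list the libraries as separate samples and do not say that each came from a separate animal, so the p-values below measure the spread between libraries.

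The proteins of this small circular genome are all subunits of the respiratory chain and of ATP synthase, the machinery that turns oxygen consumption into ATP, on which neurons depend heavily. The genes are transcribed from both strands as long RNAs that run through many genes. These are then cut into single RNAs, mostly at the tRNAs that lie between the protein genes, and most of the messengers receive short poly(A) tails. The proteins named mt-Nd1 to mt-Nd6 and mt-Nd4l belong to complex I. mt-Cytb belongs to complex III, mt-Co1 to mt-Co3 to complex IV and mt-Atp6 and mt-Atp8 to ATP synthase.

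The layout of the genome decides which read pairs could be counted, so the sequences that matter are shown first. They are read 5′ to 3′ from GENCODE transcripts of GRCm38, the assembly of the count files. The command in the file headers names no option for multi-mapping reads, overlapping genes or strand. By the defaults of the counting program, read pairs that touched more than 1 gene, or aligned equally well to several places, were not counted. The strand of a pair was ignored. The 2 ATP synthase genes share 43 bases, from MT:7927-7969, given here in capitals with 12 bases on each side (MT:7915-7981, plus strand).
mt-Atp8 and mt-Atp6: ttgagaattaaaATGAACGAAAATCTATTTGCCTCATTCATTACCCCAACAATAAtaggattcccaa
mt-Atp8 is 204 bases long, and a pair that reached into the shared stretch was not assigned to either gene. mt-Nd4l and mt-Nd4 share 7 bases, mt-Nd5 and mt-Nd6 share 14 on opposite strands, and mt-Atp6 and mt-Co3 share 1. The coding frames of mt-Co3, mt-Nd4 and mt-Cytb end with 1 base of an unfinished stop codon (capital), which the poly(A) tail completes. Their last 16 bases, on the plus strand at MT:9375-9390, MT:11529-11544 and MT:15273-15288, show the point where the tail joins.
mt-Co3: tattgatgaggatctT
mt-Nd4: acaggcctgacaataT
mt-Cytb: ctaaaattatatccaT

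A nuclear copy of part of the mitochondrial genome lies on chromosome 1, annotated as 7 pseudogenes on the minus strand between 24611535 and 24616197. Gm29216 copies the end of mt-Co1, Gm28661 copies mt-Co2, Gm10925 copies mt-Atp6, Gm28437 copies mt-Co3, Gm28438 copies mt-Nd3, Gm10222 copies mt-Nd4l and Gm28439 copies the first 876 bases of mt-Nd4. Gm28661 matched 681 of the 684 bases of mt-Co2 with 0 substitutions, which the first 60 bases show (MT:7013-7072, and 1:24615506-24615565 on the minus strand, with no capitals because no base differs).
mt-Co2: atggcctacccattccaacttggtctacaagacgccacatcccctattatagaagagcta
Gm28661: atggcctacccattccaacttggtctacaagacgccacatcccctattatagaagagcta
Gm28438 differed from mt-Nd3 at 1 base of 345, T3C, counted from 1 at the 5′ end of the mitochondrial gene (capital; MT:9459-9488, and 1:24613090-24613119 on the minus strand).
mt-Nd3: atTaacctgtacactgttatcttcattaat
Gm28438: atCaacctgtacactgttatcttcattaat
Gm29216 differed from mt-Co1 at 6 bases of 492, all near its start: T1056A, C1057T, A1059G, A1060G, C1062A and A1066T, counted in the same way (capitals; MT:6381-6410, and 1:24616168-24616197 on the minus strand).
mt-Co1: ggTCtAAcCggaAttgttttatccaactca
Gm29216: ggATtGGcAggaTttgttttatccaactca
Of all 100-base windows of a gene, the share with an exact copy in an annotated nuclear transcript was 99.5% for mt-Co2, 99.5% for mt-Atp6, 99.9% for mt-Co3, 97.6% for mt-Nd3 and 98.5% for mt-Nd4l. It was 60.8% for mt-Nd4, 30.8% for mt-Co1 and 3.19% for mt-Nd2. No such window was found for mt-Nd1, mt-Nd5, mt-Nd6, mt-Cytb, mt-Atp8 or either rRNA. Stretches between annotated genes were not searched, and mt-Atp8 has no annotated copy of its own although it lies between copied neighbours.

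The libraries held 19134422 to 25820145 counted pairs, and mitochondrial genes took 2.14% to 2.99% of them. All 8 hippocampal markers, such as Prox1 of the dentate gyrus and Wfs1 of field CA1, were found in every library. Markers of choroid plexus, the epithelium that makes cerebrospinal fluid, varied widely: 15 of 16 listed markers had counts, with a summed level of 71.0 to 2769 CPM (counts scaled to 1000000 per library) in P301S hypoxia, 609.6 to 3437 in P301S normoxia, 93.4 to 3104 in WT hypoxia and 103.4 to 3793 in WT normoxia. Title numbers of unexplained meaning are shared only among WT libraries of 1 condition and differ between all P301S libraries. What they stand for therefore cannot be told apart from genotype or hypoxia. In WT normoxia every library has the number 66 except replicate 6, which has 37. In WT hypoxia only 31 and 32 occur. If a shared number marks a common source, such as 1 animal, WT libraries with the same number are not independent. The n of each group counts libraries, so the p-values below could then be too low. CPM were computed from library sizes after trimmed-mean (TMM) scaling.

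Mitochondrial genes took 2.56% ± 0.24 of the counts in P301S hypoxia (SD, n = 6) and 2.45% ± 0.16 in P301S normoxia (SD, n = 5). In WT the share was 2.36% ± 0.13 in hypoxia and 2.37% ± 0.13 in normoxia (SD, n = 6 each). The 6 P301S hypoxia libraries lay at 2.35% at the lowest, 2.48% at the median and 2.99% at the highest. The 5 P301S normoxia libraries lay at 2.42%, 2.36%, 2.31%, 2.43% and 2.72%. The 6 WT hypoxia libraries ran over 2.14%, 2.38% and 2.50%, and the 6 WT normoxia libraries over 2.25%, 2.34% and 2.56% (lowest, median, highest). All 4 groups overlapped. The log2 ratio of the mean shares was 0.12 for P301S against WT in hypoxia and 0.06 for hypoxia against normoxia in P301S, and these were 0.07 and 0.01 without P301S hypoxia replicate 5. It was 0.04 for P301S against WT in normoxia, and 0.003 without P301S normoxia replicate 5. Because these are whole-tissue samples, a changed proportion of cells rich in mitochondria and a changed amount of mitochondrial RNA per cell cannot be told apart.

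**Figure D1:**
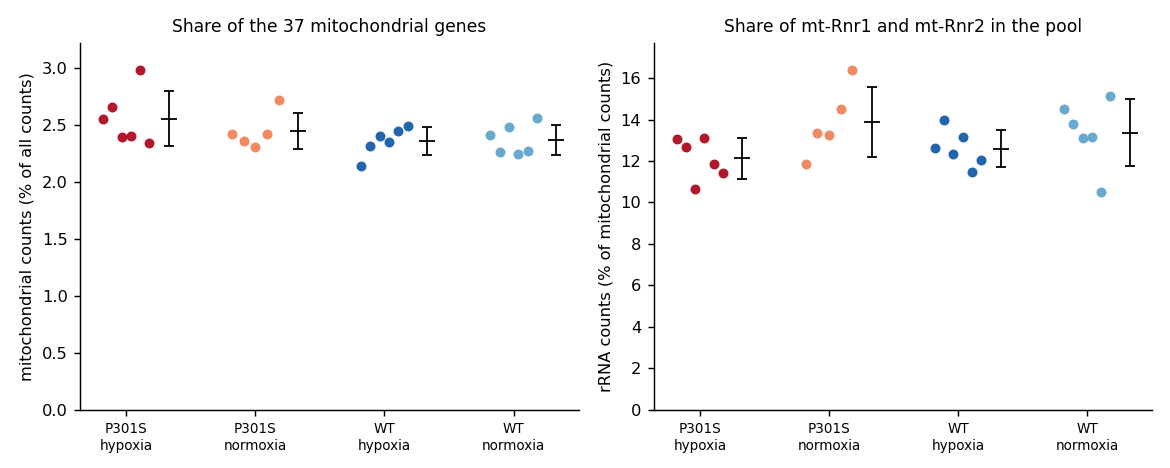
Left, counts of the 37 mitochondrial genes as a percentage of all counts of each library, with 4 overlapping groups that lie between 2.14% and 2.99%. Right, counts of both mitochondrial rRNAs as a percentage of mitochondrial counts. Each point is 1 library, and the black marks give the group mean and SD.

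Messengers made up most of the counted mitochondrial pairs. These were mRNA libraries, and pairs that touched more than 1 gene or aligned equally well to several places were not counted. The shares here and the levels per kilobase below therefore describe counted pairs. They do not give the make-up of mitochondrial RNA in the tissue. The 2 rRNAs, the RNA scaffolds of the mitochondrial ribosome, took 10.6% to 13.1% of mitochondrial counts in P301S hypoxia, 11.9% to 16.4% in P301S normoxia, 11.5% to 14.0% in WT hypoxia and 10.51% to 15.15% in WT normoxia. All tRNAs together took 0.108% to 0.220%. mt-Co1 alone held 29.4% of mitochondrial counts over the 23 libraries, followed by mt-Cytb with 15.4%, mt-Nd1 with 10.7%, mt-Nd5 with 9.67%, mt-Nd2 with 9.06% and mt-Nd4 with 8.37%. mt-Rnr2 held 8.03%, mt-Rnr1 4.94% and mt-Nd6 2.83%. The other 6 messengers held under 1% each, from mt-Co2 with 0.535% to mt-Atp8 with 0.0347%.

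Levels of different genes were compared per kilobase of gene (CPM per kb, mean ± SD over the 23 libraries). mt-Co1, the catalytic core of complex IV, stood highest with 4633 ± 297 CPM per kb. mt-Cytb had 3280 ± 282, mt-Nd1 had 2720 ± 271 and mt-Nd2 had 2127 ± 213 CPM per kb. These leading levels were separated from each other by more than their SDs. mt-Nd4 with 1479 ± 130, mt-Nd6 with 1324 ± 186, mt-Nd5 with 1291 ± 156, mt-Rnr1 with 1260 ± 180 and mt-Rnr2 with 1235 ± 169 CPM per kb followed, each within the spread of its neighbour in this order. A gap then opened to mt-Co2 with 191 ± 25.4, mt-Atp6 with 138 ± 13.9 and mt-Co3 with 122 ± 13.6 CPM per kb. mt-Nd3 with 53.6 ± 7.87, mt-Nd4l with 51.9 ± 5.28 and mt-Atp8 with 41.2 ± 8.50 CPM per kb stood lowest. The 5 messengers that are copied almost whole on chromosome 1 were thus all below the gap, together with mt-Atp8.

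**Figure D2:**
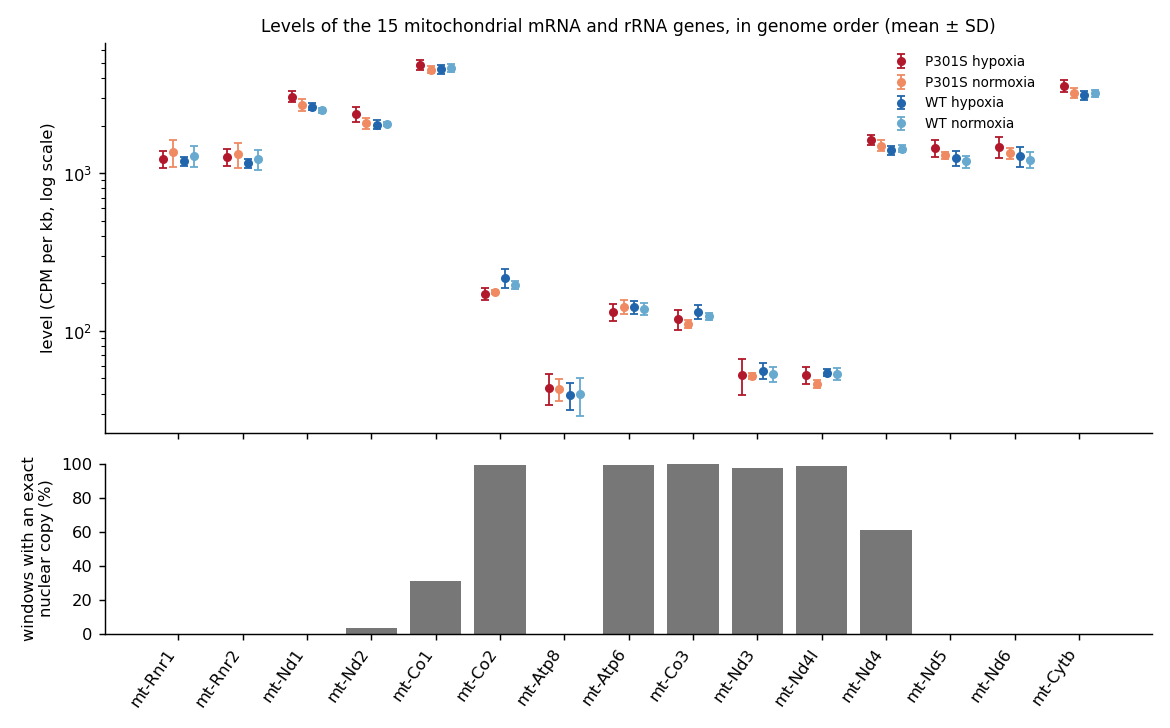
Top, the level of each mitochondrial messenger and rRNA in genome order, in CPM per kb on a log scale, as the mean and SD of each group. Bottom, the percentage of 100-base windows with an exact copy in an annotated nuclear transcript. mt-Co2, mt-Atp6, mt-Co3, mt-Nd3 and mt-Nd4l, with 97.6% to 99.9% of windows copied, have group means of at most 217.5 CPM per kb (mt-Co2 in WT hypoxia), mt-Atp8 at most 43.5, and the other 9 genes at least 1150 (mt-Rnr2 in WT hypoxia).

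The 5 copies of nearly whole genes drew counts of the same order as those genes, and the copies of parts of mt-Nd4 and mt-Co1 drew far fewer. Gm28661 had 1.07 to 1.96 times the counts of mt-Co2 across the 23 libraries, with a median ratio of 1.41. The median ratio of copy to mitochondrial gene was 2.39 for Gm10925 and mt-Atp6, 1.77 for Gm28437 and mt-Co3, 1.82 for Gm10222 and mt-Nd4l, and 0.857 for Gm28438 and mt-Nd3. It was 0.0433 for Gm28439 and mt-Nd4 and 0.0255 for Gm29216 and mt-Co1. A further 3 copies on chromosome 2, Gm13339, Gm13340 and Gm13341, had 0 counts in all libraries. With both counts added, mt-Co2 reached 460 CPM per kb, mt-Atp6 485, mt-Co3 341, mt-Nd4l 148 and mt-Nd3 98.4, all still under the 1235 CPM per kb of mt-Rnr2. Pairs that aligned equally well to a gene and its copy were in neither count. The sums therefore do not give the full levels of these messengers, and their place under mt-Rnr2 does not show that they were low. Where a pair counted in a copied stretch came from was not tested.

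Differences between groups were tested for 25 of the 37 genes, those that passed the filter on low counts: all 13 protein genes, both rRNAs and 10 tRNAs. The fit covered all 17788 tested genes (edgeR's quasi-likelihood test, Benjamini-Hochberg adjustment, called at an adjusted p under 0.05), and log2 fold changes are given ± SE. The first question was how P301S and WT mice differed in hypoxia. Here 2 complex I messengers, mt-Nd1 and mt-Nd4, rose in P301S mice and the complex IV messenger mt-Co2 fell. Over all tested genes 1.87% were called, 0.528% as higher and 1.34% as lower, against 3 of the 25 mitochondrial genes. The median log2 fold change was 0.09 for the 25 genes and 0.14 for the 15 messengers and rRNAs, against 0.0004 for all tested genes.

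mt-Co2 (MT:7013-7696, plus strand) encodes the subunit of complex IV that accepts electrons from cytochrome c. It had 105 CPM at the lowest, 117 at the median and 130 at the highest in P301S hypoxia, against 126, 147 and 184 in WT hypoxia. The groups overlapped in a narrow range only. The mean was 117.6 ± 10.7 CPM in P301S hypoxia and 148.8 ± 20.6 CPM in WT hypoxia (SD, n = 6 each), a log2 fold change of -0.34 ± 0.07 with an adjusted p of 0.0169. The call was lost without P301S hypoxia replicate 2 (adjusted p = 0.0519) and held in the other 11 fits that left out 1 library. It was also lost with length and GC trends removed (log2 fold change -0.24, adjusted p = 0.121) and with only the 2 groups compared (-0.34, adjusted p = 0.0721).

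The chromosome 1 copy of mt-Co2 was not called. Gm28661 had a mean of 188.6 ± 20.3 CPM in P301S hypoxia and 194.1 ± 8.87 CPM in WT hypoxia (SD, n = 6 each). Its log2 fold change was -0.04 ± 0.08 (adjusted p = 0.846). Added together, mt-Co2 and Gm28661 had 256.9, 314.0 and 325.7 CPM in P301S hypoxia (lowest, median, highest), against 324.4, 335.0 and 382.2 CPM in WT hypoxia. The sum gave a log2 fold change of -0.17 ± 0.06 with an adjusted p of 0.158, so mt-Co2 was no longer called once the pairs placed on its identical copy were added. None of the 7 copies was called in this comparison.

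mt-Nd1 (MT:2751-3707, plus strand), a membrane subunit of complex I next to the quinone site, had 2621 CPM at the lowest, 2912 at the median and 3308 at the highest in P301S hypoxia. In WT hypoxia these were 2328, 2518 and 2671 CPM. The groups touched, since the lowest P301S library lay under the highest WT library. The log2 fold change was 0.21 ± 0.06 (adjusted p = 0.0497). mt-Nd4 (MT:10167-11544, plus strand), a proton-pumping subunit of complex I, had 2060, 2196 and 2467 CPM in P301S hypoxia, against 1719, 1948 and 2048 CPM in WT hypoxia. Of the 25 genes it alone had groups that did not overlap in this comparison, against 1.93% of all tested genes. Its log2 fold change was 0.22 ± 0.06 (adjusted p = 0.0482). Both calls stood close to the threshold: each held in 2 of the 12 fits that left out 1 library, and neither held with library size alone, upper quartile factors, scaling from nuclear genes or mitochondrial counts as library size (adjusted p = 0.0512 to 0.517). Without P301S hypoxia replicate 5, the library with the highest level of 12 of the 15 messengers and rRNAs, the fold change of mt-Nd1 was 0.17 (adjusted p = 0.0992) and that of mt-Nd4 0.19 (adjusted p = 0.0959).

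The complex I messengers mt-Nd2, mt-Nd5 and mt-Nd6 and the complex III messenger mt-Cytb had positive log2 fold changes that did not pass, while mt-Nd3 stood at -0.09 ± 0.12 and mt-Nd4l at -0.06 ± 0.08. mt-Nd2, a further proton-pumping subunit, had a log2 fold change of 0.22 ± 0.06 (adjusted p = 0.0628). mt-Cytb, the cytochrome b of complex III, had 0.19 ± 0.06 (adjusted p = 0.0841), mt-Nd5 had 0.20 ± 0.08 (adjusted p = 0.164) and mt-Nd6, the only messenger encoded on the minus strand, had 0.20 ± 0.10 (adjusted p = 0.272). mt-Co1 stood at 0.08 ± 0.05, mt-Rnr2 at 0.14 ± 0.10 and mt-Rnr1 at 0.04 ± 0.11 on the log2 scale. The 5 messengers copied almost whole had a median of -0.11, and all 5 had negative values, from -0.34 for mt-Co2 to -0.06 for mt-Nd4l. With the chromosome 1 copies added, 3 of these 5 were negative, while mt-Nd4l stood at 0.06 and mt-Atp6 at 0.003. The 7 genes with under 5% of windows copied, mt-Atp8 left out, had a median of 0.20 and all 7 had positive values, from 0.04 to 0.22. For P301S against WT in normoxia, 4 of the 5 copied messengers had negative values (median -0.16) and all 7 of the other genes positive values (median 0.10). For hypoxia against normoxia in WT, the 5 copied messengers all had positive values (median 0.08). Of the other 7 genes, 3 then had positive and 4 negative values (median -0.01). In P301S mice, hypoxia gave medians of 0.03 for the copied messengers and 0.15 for the other 7 genes, with both signs in each set. That grouping was made with the values known, and the difference between its sides was not tested.

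**Figure D3:**
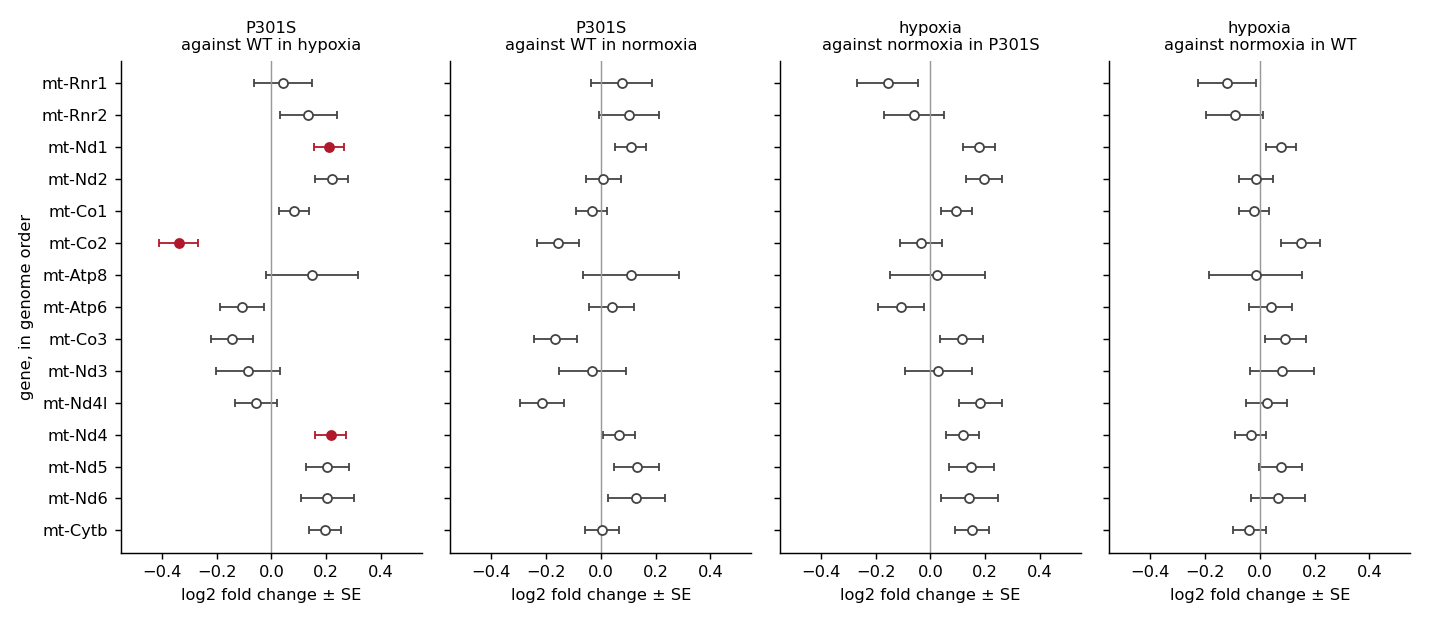
Log2 fold change and SE of each mitochondrial messenger and rRNA in the 4 comparisons, with genes in genome order. Filled red points mark the 3 genes called at an adjusted p under 0.05 (mt-Nd1, mt-Co2 and mt-Nd4), all in P301S against WT in hypoxia.

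Summed levels of cell type markers in these groups stand beside the calls. The summed level of the choroid plexus markers was 71.0, 1240 and 2769 CPM in P301S hypoxia (lowest, median, highest), against 93.4, 684.3 and 3104 CPM in WT hypoxia. A fit with the mean log2 level of these markers, not their sum, as covariate called the same 3 genes. Without the 6 libraries lowest in that mean, 2 from P301S hypoxia, 3 from WT hypoxia and 1 from WT normoxia, none was called. mt-Co2 then had a log2 fold change of -0.31 ± 0.10 (adjusted p = 0.197), mt-Nd1 0.20 ± 0.08 (adjusted p = 0.247) and mt-Nd4 0.23 ± 0.08 (adjusted p = 0.219). With all libraries these were -0.34 ± 0.07, 0.21 ± 0.06 and 0.22 ± 0.06. The smaller fit held fewer libraries, so the loss of the calls does not tell what choroid plexus content contributed. The 4 measured erythrocyte markers summed to 35.9, 50.8 and 61.2 CPM in P301S hypoxia, against 51.5, 70.3 and 157.2 CPM in WT hypoxia. The 8 hippocampal markers summed to 1221, 1402 and 1499 CPM in P301S hypoxia, against 1093, 1225 and 1413 CPM in WT hypoxia. The 9 neuronal markers summed to 9761, 10830 and 11760 CPM in P301S hypoxia, against 8861, 10400 and 10820 CPM in WT hypoxia. Sums weigh the most abundant markers most, so mean log2 levels, centred over all libraries, are given too (SD, n = 6 each). For neuronal markers these were 0.03 ± 0.06 in P301S hypoxia and 0.05 ± 0.09 in WT hypoxia, the reverse order of the sums. For hippocampal markers they were 0.11 ± 0.11 and -0.003 ± 0.12, and for erythrocyte markers -0.53 ± 0.37 and 0.15 ± 0.70. The part of the choroid plexus, erythrocyte, hippocampal and neuronal levels in the result was not tested.

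In normoxia, no mitochondrial gene was called between P301S and WT mice by edgeR's quasi-likelihood test, while 6.35% of all tested genes were. At an unadjusted p under 0.05 there were 5 mitochondrial genes, against 22.8% of all tested genes. DESeq2 called 1, mt-Tp, and the share of all tested genes that it called is not given here. The median log2 fold change was 0.01 for the 25 genes, 0.04 for the messengers and rRNAs and 0.01 for all tested genes. The comparisons in normoxia and hypoxia share no libraries, and whether they differ is the question of the interaction test below.

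mt-Tp (MT:15356-15422, minus strand), the proline tRNA, lies at the end of the gene series, next to the non-coding control region. Its gene touches mt-Tt, is shorter than 1 read and was counted without regard to strand. A counted pair can therefore reach into the control region, on either strand, so the counts do not give the level of the mature tRNA. mt-Tp was the most counted tRNA, and its 67 bases are shown because it had the lowest p of the 25 genes in normoxia (no capitals).
mt-Tp: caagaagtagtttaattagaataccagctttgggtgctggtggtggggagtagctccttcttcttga
In P301S normoxia it had 23.03, 18.9, 20.8, 19.4 and 15.2 CPM, against 25.0, 30.1 and 38.1 CPM in WT normoxia (lowest, median, highest). The groups did not overlap, as was so for 2 of the 25 mitochondrial genes and for 3.34% of all tested genes in this comparison. The log2 fold change was -0.64 ± 0.20 with an adjusted p of 0.0533, just short of the threshold, which it passed without P301S normoxia replicate 1 (adjusted p = 0.0355) or WT normoxia replicate 1 (adjusted p = 0.0438). In hypoxia the same gene had 16.5, 20.8 and 33.0 CPM in P301S mice, against 16.4, 23.9 and 33.2 CPM in WT mice, with a log2 fold change of -0.10 ± 0.19 (adjusted p = 0.822).

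mt-Tm, the methionine tRNA, also had groups that did not overlap in normoxia, at a level near 10 counts per library. It had 0.301, 0.172, 0.333, 0.229 and 0.433 CPM in P301S normoxia, against 0.439, 0.539 and 0.620 CPM in WT normoxia. Its log2 fold change was -0.84 ± 0.33 (adjusted p = 0.126). Among the messengers mt-Nd4l, a small membrane subunit of complex I, had the lowest p, with 13.4, 14.9, 13.8, 12.8 and 13.8 CPM in P301S normoxia, against 13.6, 16.1 and 18.0 CPM in WT normoxia (log2 fold change -0.21 ± 0.08, adjusted p = 0.105). mt-Co2 had 124.6, 122.5, 117.9, 122.4 and 114.9 CPM in P301S normoxia, against 124.3, 134.3 and 144.4 CPM in WT normoxia. Its log2 fold change of -0.16 ± 0.08 had an adjusted p of 0.215, and mt-Co3 stood at -0.17 ± 0.08 (adjusted p = 0.209). mt-Nd1 stood at 0.11 ± 0.06 and mt-Nd4 at 0.07 ± 0.06.

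**Figure D4:**
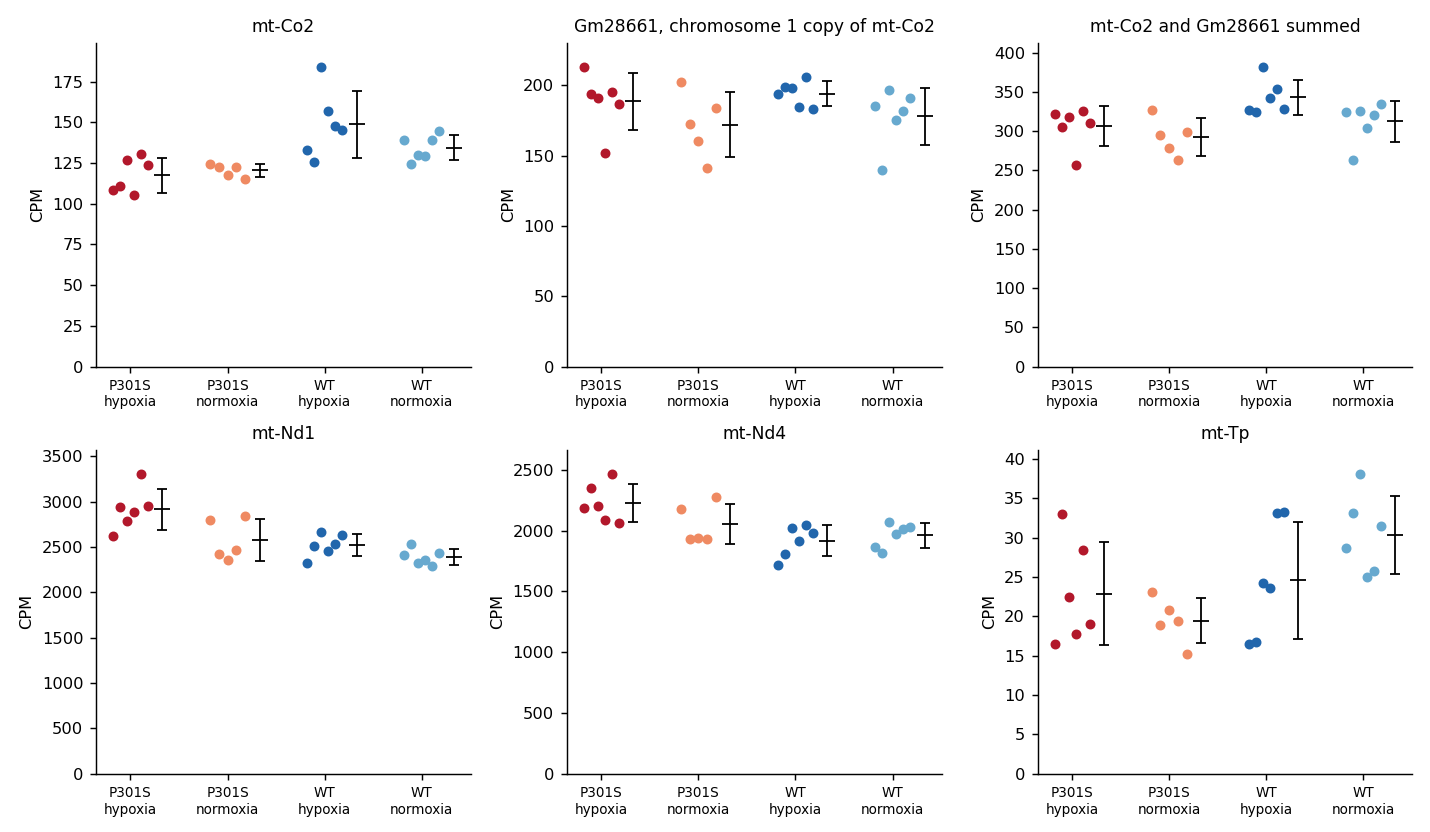
CPM of each library for mt-Co2, its chromosome 1 copy Gm28661, their sum, mt-Nd1, mt-Nd4 and mt-Tp, by group. Black marks give the group mean and SD. mt-Co2 averages 117.6 CPM in P301S hypoxia and 148.8 in WT hypoxia, whereas Gm28661 averages 188.6 CPM in P301S hypoxia and 194.1 in WT hypoxia, and the mt-Tp points of P301S normoxia lie below all of WT normoxia.

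Hypoxia itself was examined within each genotype. In P301S mice edgeR's quasi-likelihood test called no mitochondrial gene, against 0.41% of all tested genes, and DESeq2 called none. At an unadjusted p under 0.05 there were 4 mitochondrial genes, against 13.8% of all tested genes. The median log2 fold change was 0.14 for the 25 genes and 0.11 for the messengers and rRNAs, against -0.003 for all tested genes. mt-Nd1 had 2621, 2912 and 3308 CPM in P301S hypoxia, against 2803, 2425, 2358, 2464 and 2844 CPM in P301S normoxia, a log2 fold change of 0.18 ± 0.06 (adjusted p = 0.166). mt-Nd2 had 2216, 2368 and 2973 CPM in P301S hypoxia, against 2289, 2003, 1998, 2064 and 2339 CPM in P301S normoxia, with 0.20 ± 0.06 (adjusted p = 0.167). Both pairs of groups overlapped. mt-Cytb stood at 0.15 ± 0.06 (adjusted p = 0.265) and mt-Nd4l at 0.18 ± 0.08 (adjusted p = 0.303), and the rRNAs had negative values, -0.16 ± 0.11 for mt-Rnr1 and -0.06 ± 0.11 for mt-Rnr2. These values share the P301S hypoxia libraries with the comparison of genotypes in hypoxia.

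In WT mice no mitochondrial gene was called after hypoxia by edgeR's quasi-likelihood test, against 0.0731% of all tested genes, and DESeq2 called none. At an unadjusted p under 0.05 there was 1 mitochondrial gene, against 11.6% of all tested genes. It was mt-Co2, with 126, 147 and 184 CPM in WT hypoxia, against 124, 134 and 144 CPM in WT normoxia, a log2 fold change of 0.15 ± 0.07 (adjusted p = 0.43). mt-Nd1 stood at 0.08 ± 0.06 and mt-Nd2 at -0.01 ± 0.06. Over the 15 messengers and rRNAs the median was 0.02, with 8 positive and 7 negative values. The 2 rRNAs again had negative values, -0.12 ± 0.11 for mt-Rnr1 and -0.09 ± 0.10 for mt-Rnr2, within their spread.

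The difference of the hypoxia effects between genotypes, P301S minus WT, was tested directly and no mitochondrial gene was called by edgeR's quasi-likelihood test, against 0.0394% of all tested genes. DESeq2 called none either. At an unadjusted p under 0.05 there were 2, against 9.43% of all tested genes. These were mt-Nd2 with 0.21 ± 0.09 (adjusted p = 0.467) and mt-Cytb with 0.19 ± 0.09 (adjusted p = 0.488) on the log2 scale. For mt-Co2 the difference was -0.18 ± 0.10 (adjusted p = 0.599) and for mt-Tp 0.54 ± 0.27 (adjusted p = 0.544). The calls made in hypoxia alone were therefore not shown to differ from the values in normoxia.

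The rRNAs and the 2 ATP synthase messengers were called in no comparison of the fit over all genes. mt-Rnr1, the small rRNA, had 959.5, 1227 and 1302 CPM in P301S hypoxia, and 1115, 1174, 1143, 1332 and 1728 CPM in P301S normoxia. It had 1023, 1133 and 1216 CPM in WT hypoxia and 959.5, 1216 and 1544 CPM in WT normoxia. mt-Rnr2, the large rRNA, likewise peaked in P301S normoxia replicate 5, at 2735 CPM. mt-Atp6, a membrane subunit of the proton channel, had 82.3, 86.0 and 112.0 CPM in P301S hypoxia against 84.7, 95.7 and 108.3 CPM in WT hypoxia (log2 fold change -0.11 ± 0.08, adjusted p = 0.507). mt-Atp8, an accessory subunit with a mean of 203 counts per library, had 7.43, 7.78 and 12.3 CPM in P301S hypoxia against 5.89, 8.32 and 9.71 CPM in WT hypoxia (log2 fold change 0.15 ± 0.17, adjusted p = 0.689). mt-Nd3, a small complex I subunit, stood between -0.09 and 0.08 on the log2 scale in the 4 comparisons.

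The tRNA genes are 59 to 75 bases long, shorter than 1 read, and mature tRNAs lack poly(A) tails. Their counts were few. mt-Tp had 589 counts per library on average, mt-Tc (cysteine) 86.6 and mt-Tn (asparagine) 83.2. mt-Te (glutamate) averaged 37.2 counts, mt-Ty (tyrosine) 23.8, mt-Tl1 (leucine) 21.4, mt-Th (histidine) 14.5, mt-Tl2 (leucine) 13.9, mt-Tw (tryptophan) 12.7 and mt-Tm 10.1. On the genome 32 bases separate mt-Tn from mt-Tc. mt-Tp faces the control region, and so does mt-Tf (phenylalanine) at its other end, which had 0 counts. A pair had to fall outside neighbouring genes to be counted, and most tRNA genes touch or nearly touch a neighbour. The 12 tRNAs that did not pass the filter had 0 to 140 counts in all libraries together. The lowest were mt-Td with 1 count and mt-Tf with 0, and a count of 0 allows up to 0.00543 CPM (3 counts of 552154570, counting error only). Apart from mt-Tp and mt-Tm in normoxia, every tested tRNA had overlapping groups in all 4 comparisons. For the effect of hypoxia, groups did not overlap for 2.13% of all tested genes in P301S mice and 0.691% in WT mice. The log2 SEs of the tested tRNAs ran from 0.17 to 0.39.

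Nuclear genes that replicate, transcribe, process and degrade mitochondrial nucleic acids were followed as a list of 61, of which 58 were tested. Of these 58, 1 was called lower and 0 higher in P301S against WT in normoxia, against 6.35% of all tested genes called, with a median log2 fold change of -0.01, and 0 were called in the other comparisons (edgeR's quasi-likelihood test). The gene was Hsd17b10, a mitochondrial dehydrogenase that is also a subunit of the RNase P complex, which cuts the 5′ ends of mitochondrial tRNAs. It had 19.1, 15.7, 16.6, 18.3 and 15.3 CPM in P301S normoxia, against 19.2, 20.8 and 22.6 CPM in WT normoxia. The groups just failed to overlap, with 19.07 CPM at the highest in P301S normoxia and 19.15 at the lowest in WT normoxia. Groups did not overlap for 3.34% of all tested genes in this comparison. The log2 fold change of Hsd17b10 was -0.29 ± 0.08 (adjusted p = 0.0302), and alternative fits of it are not given here. In hypoxia it had 16.2, 17.0 and 19.4 CPM in P301S mice, against 17.6, 20.6 and 23.1 CPM in WT mice, a log2 fold change of -0.24 ± 0.07 (adjusted p = 0.0884).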

How the data were processed

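The authors deposited unnormalized counts of read pairs for each gene body, which featureCounts 1.6.2 made with an Ensembl release 90 annotation, per the file headers. The command names no option for multi-mapping reads, overlapping genes or strand, and alignment file names mark duplicates as removed, which can lower the counts of abundant short transcripts. HISAT2, mm10 and DESeq2 1.6.3 are named in the submitters' processing notes. Library depth was 19134422 to 25820145 counts. From these counts, edgeR 4.0.16 (TMM, filterByExpr with a minimum count of 10, robust quasi-likelihood fit over 4 group means and all 23 libraries) tested 17788 genes, and only the rows of mitochondrial genes are given. It was tested on simulated data, where the changes put in were all larger than those of the called mitochondrial genes. DESeq2 1.42.0 was an alternative. Shares of counts were described without a test. Exact 100-base matches were sought in 138003 nuclear transcripts of GENCODE, which also gave symbols. The members and lists were chosen with earlier results of these data known. All 15 messengers and rRNAs were named, tRNAs that passed the filter or averaged at least 10 counts, up to 4 called nuclear genes per comparison, and copies with at least 10 counts. Replicates were numbered in accession order.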

Additional observations from a re-analysis of the deposited data

Results flagged for a closer look

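In P301S hypoxia, replicate 5 stood apart from the other 5 libraries in its level of mt-Atp6, at 112.0 CPM. In P301S normoxia, replicate 5 stood apart in the mitochondrial share of counts, at 2.72%. These were 2 of 108 groups of libraries examined for a sample far from the rest, or 1.85%, and chance flags about 5%.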

How the results depend on the processing

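The count of mitochondrial genes called in P301S against WT in hypoxia, 3 in the fit described above, was 5 with DESeq2 (mt-Nd1, mt-Nd2, mt-Nd4 and mt-Cytb higher, mt-Co2 lower). It was 1 (mt-Co2, lower) with library size alone, upper quartile factors, scaling from nuclear genes only, no filter on low counts, a non-robust fit or the older quasi-likelihood method. It was 0 with only the 2 groups compared, without the 6 libraries lowest in choroid plexus markers, or with chromosome 1 copies added to their mitochondrial genes (the last and the older method were chosen after seeing the data). The causes were not tested. The share of all tested genes called in each alternative fit is not given here. These counts alone therefore do not show whether the mitochondrial genes or the whole table moved. The count of mitochondrial genes called was 0 to 4 when 1 library was left out. With mitochondrial counts as library size 3 were called, but different genes: mt-Co2, mt-Atp6 and mt-Co3, all lower, where the median of all tested genes also moved by -0.15 on the log2 scale (-0.48 for mt-Co2). With length and GC trends removed it was 2 (mt-Nd1 and mt-Nd2, higher), and mt-Co2 had a log2 fold change of -0.24 (adjusted p = 0.121). In P301S against WT in normoxia the count was 1 (mt-Tp), against 0, with DESeq2, a non-robust fit, only the 2 groups compared, or without the 6 libraries lowest in choroid plexus markers, and 0 to 1 when 1 library was left out. No alternative called a gene for hypoxia in either genotype or for the difference between genotypes. No called fold change changed sign. The 4 ratios of mitochondrial shares moved by less than 0.098, the SD between libraries of a group on the log2 scale. That limit was larger in size than the ratio of genotypes in normoxia and both ratios for hypoxia. A ratio could vanish within it, so it does not show that these ratios were stable. No paired analysis was possible because replicate numbers only name libraries. The tested tRNAs had 10 to 589 mean counts per library and mt-Atp8 had 203.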
